A study of Mus musculus with 8 samples.

Results

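The 10 genes described here encode G protein-coupled receptors that leukocytes use to sense bacterial peptides, lipids and metabolites: Fpr1, Fpr2, Fpr3, Gpr84, Gpr18, Gpr31b, Gpr65, Gpr183, Ptafr and Hcar2. They were taken by symbol from the 32227 genes of the deposited matrices, and all 10 were present. They were selected on the difference between LPS and saline mice in these same libraries, so that difference is given for them as a description with no test. Comparisons with the dissociation treatment, which the choice did not use, were tested.

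The data were single-cell RNA counts of CD45+ cells that had been magnetically enriched from whole brains of 8 male C57Bl/6J mice, 5 to 6 months old per the labels, where the study's methods give a younger range. Each mouse had received 1 intraperitoneal injection of saline or of LPS (lipopolysaccharide, an endotoxin of Gram-negative bacteria, 15000000 EU/kg) 24 h before the brain was taken. Brains were dissociated in the presence of DMSO, the solvent, or of inhibitors of transcription and translation (actinomycin D, triptolide and anisomycin), which limit gene induction during the procedure. Crossing the treatments gave 4 groups of 2 libraries, named by the injection and the dissociation agent (saline DMSO, LPS inhibitors and so on), each library from 1 mouse. Each group had 1 library in each of the 2 batches of the labels. The batches are read here as capture days, because the study's methods trace batch effects to staggered days of capture, without saying which library belongs to which day. Brains were not perfused, so blood leukocytes held in vessels and leukocytes inside the tissue cannot be told apart.

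Formyl peptide receptors bind peptides that begin with formylmethionine, which bacteria and mitochondria make, and steer neutrophils and monocytes toward them. Fpr1 and Fpr2 are the receptors best known for this role, and Fpr3 is a close relative of Fpr2. Gpr84 responds to medium-chain fatty acids, Hcar2 to beta-hydroxybutyrate and niacin, Gpr65 to extracellular protons, and Ptafr to platelet-activating factor, a phospholipid mediator. Gpr183 guides cells along gradients of oxysterols such as 7-alpha,25-dihydroxycholesterol. Gpr18 and Gpr31b are less well understood, with lipid ligands proposed for both.

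The 250 bases before the RefSeq start (build GRCm38.p6) were read for 9 of the 10 genes, with Hcar2 as the exception. RefSeq and GENCODE starts differ for some of them. The Gpr84 window lies mostly inside the GENCODE Gpr84 model, and the Fpr3 window lies inside the GENCODE Fpr3 gene, just before its last exon. Both strands were searched for the core of the PU.1 site (GAGGAAGT), the AP-1 site (TGANTCA), the C/EBP site (TTGCNNAA), the interferon-gamma activated or GAS site (TTCNNNGAA) and the NF-kappaB consensus, each as an exact match. Of 32851 windows of the same length, 2.44% held the PU.1 core, 6.75% the AP-1 letters, 9.56% the C/EBP letters, 7.02% the GAS letters and 5.0% the NF-kappaB letters. Among the 9 receptor genes, Fpr2 held a GAS match at positions -77 to -69 from the start. Gpr183 held a C/EBP match at -207 to -200. Gpr31b held a PU.1 core at -74 to -67 and an NF-kappaB match at -231 to -222. A match describes the letters only. The windows of Fpr1 (chr17:17883940-17884189, minus strand), Fpr2 (chr17:17887574-17887823, plus strand), Gpr84 (chr15:103310439-103310688, minus strand), Gpr31b (chr17:13052281-13052530, minus strand) and Gpr183 (chr14:121965194-121965443, minus strand) are shown 5′ to 3′ on the strand of the gene, with matches in capitals. They stand for receptors that were much higher in LPS microglia, with and without a match, and for Gpr183, which was lower in several classes.
Fpr1: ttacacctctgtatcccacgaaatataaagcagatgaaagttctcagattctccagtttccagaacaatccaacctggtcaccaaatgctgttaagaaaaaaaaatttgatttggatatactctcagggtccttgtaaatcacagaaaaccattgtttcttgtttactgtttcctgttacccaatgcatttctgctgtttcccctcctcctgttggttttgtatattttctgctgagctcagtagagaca
Fpr2: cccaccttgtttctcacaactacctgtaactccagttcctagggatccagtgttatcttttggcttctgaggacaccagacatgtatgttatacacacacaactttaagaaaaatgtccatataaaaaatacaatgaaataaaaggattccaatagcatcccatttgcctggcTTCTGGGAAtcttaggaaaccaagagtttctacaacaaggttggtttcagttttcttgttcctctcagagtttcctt
Gpr84: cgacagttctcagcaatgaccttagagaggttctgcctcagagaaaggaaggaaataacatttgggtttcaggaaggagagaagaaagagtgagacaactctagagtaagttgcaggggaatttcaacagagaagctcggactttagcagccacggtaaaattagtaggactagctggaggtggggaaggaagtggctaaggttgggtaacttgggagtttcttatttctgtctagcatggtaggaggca
Gpr31b: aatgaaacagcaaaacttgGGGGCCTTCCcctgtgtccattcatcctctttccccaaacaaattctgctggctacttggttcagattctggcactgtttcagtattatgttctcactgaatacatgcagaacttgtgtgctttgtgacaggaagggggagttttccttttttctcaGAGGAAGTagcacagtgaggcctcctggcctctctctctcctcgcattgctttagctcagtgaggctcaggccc
Gpr183: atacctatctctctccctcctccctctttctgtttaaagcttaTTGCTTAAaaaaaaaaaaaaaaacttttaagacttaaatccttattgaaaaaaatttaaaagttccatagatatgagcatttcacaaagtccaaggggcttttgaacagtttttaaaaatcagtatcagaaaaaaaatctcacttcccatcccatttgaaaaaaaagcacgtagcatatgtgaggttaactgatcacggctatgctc

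The libraries held 90352359 to 141182123 UMIs (unique molecular identifiers, 1 per captured RNA molecule), and 119053 cells met the criteria for UMIs, detected genes and mitochondrial RNA. Marker genes placed 100695 of them (84.6%) in 8 classes. The ungated share differed between treatments (5.62% to 10% of cells in saline and 15.5% to 18.9% in LPS libraries). Microglia numbered 10515 to 13696 cells a library after saline and 8343 to 12586 after LPS, and their median depth was 2237 to 3220 UMIs against 4895 to 5632.5. Saline libraries held 319 to 637 macrophages, 92 to 207 monocytes and 50 to 164 neutrophils, and LPS libraries held 188 to 279, 622 to 851 and 283 to 439. The marker list that defined microglia was itself lower after LPS, with a sum of 42850 to 44430 CPM in saline and 7697 to 8884 CPM in LPS microglia (CPM, the UMIs of a gene scaled to 1 common total of all UMIs of its class and library). Free RNA, the UMIs on barcodes too shallow to be cells, made up 15.5% to 33.7% of a library.

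Log2 fold changes come from edgeR with TMM scaling, and in microglia TMM set the log2 change 0.75 above the one from CPM. That offset was 0.37 in macrophages, 0.11 in monocytes and 0.13 in neutrophils. All 10 receptor genes passed the filter on low counts in microglia. In CPM, 8 of them were higher in each of the 4 LPS libraries than in any of the 4 saline libraries, and Gpr183 and Ptafr were lower. Of all 20322 genes tested in microglia, 13% separated the libraries with LPS higher and 59.7% with LPS lower, and nothing is read from the receptor count because this contrast chose the genes.

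Fpr1, the high-affinity formyl peptide receptor of phagocytes, was close to undetected in saline microglia, at 0.83 and 1.89 CPM in the DMSO and 0.571 and 3.09 CPM in the inhibitor libraries. In LPS microglia it stood at 579 and 435 CPM with DMSO and 635 and 535 CPM with inhibitors. The lowest LPS library was far above the highest saline library, and the log2 fold change was 9.20 ± 0.523 (SE, n = 4 against 4). Over all saline microglia 185 Fpr1 UMIs were counted in 46194 cells, and over LPS microglia 135314 in 43512 cells.

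Fpr2, which binds formyl peptides and several host proteins, was at 0.286 to 1.34 CPM in saline microglia and at 166, 118, 148 and 121 CPM in LPS DMSO 1, LPS DMSO 2, LPS inhibitors 1 and LPS inhibitors 2. Fpr3 was at 3.23 to 4.42 CPM and at 173, 123, 151 and 125 CPM in the same libraries. For each gene the groups lay apart, with log2 fold changes of 8.45 ± 0.369 for Fpr2 and 5.91 ± 0.144 for Fpr3. These genes are not independent in the annotation. In GENCODE on GRCm38, Fpr2 (chr17:17887824-17893952) starts just before Fpr3 (chr17:17887852-17971677) and overlaps it on the plus strand. Of 1296 Fpr2 exon bases, 1220 fall in the intron of Fpr3 and 48 are exon bases of both genes.

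The ratio between Fpr2 and Fpr3 differed between the treatments in microglia. In LPS microglia, Fpr3 took 50.4% to 51.1% of the UMIs of both genes in every library, and in saline microglia 74.5% to 93.9%. In monocytes the share was 57.1% to 71.4% in saline, on few UMIs, and 49.9% to 52.6% in LPS libraries. Saline and LPS shares overlapped in macrophages (46.7% to 65% and 47.8% to 53.7%) and neutrophils (40% to 50% and 47.9% to 51.6%). Among LPS microglia with 2 UMIs over both genes, 49.5% to 51.7% of cells had 1 on each. How the counting assigned reads to genes that overlap, and whether it used strand, was not given in the sources used here, so the share of Fpr3 values that came from Fpr2 transcripts was not tested. Summed over both genes, the level was 3.98 to 5.23 CPM in saline and 240.5 to 338.6 CPM in LPS microglia, and the log2 fold change was 6.65.

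Gpr84, a Gi-coupled receptor for medium-chain fatty acids, was already measurable in saline microglia, at 78.9 and 129 CPM with DMSO and 86.4 and 124 CPM with inhibitors. LPS microglia had 1341 and 1250 CPM with DMSO and 1725 and 1355 CPM with inhibitors. Every LPS library was higher than every saline library, with a log2 fold change of 4.48 ± 0.244. After each cell was thinned to 800 UMIs, 5.56% to 9.11% of saline and 53.5% to 64.4% of LPS microglia had a Gpr84 UMI. Without thinning the shares were 17.4% to 22.0% and 89.6% to 94.2%.

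Hcar2, the receptor for niacin and the ketone body beta-hydroxybutyrate, was at 2.49, 6.26, 3.32 and 4.01 CPM in the saline DMSO 1, saline DMSO 2, saline inhibitors 1 and saline inhibitors 2 microglia. The LPS libraries in the same order were at 176, 108, 159 and 152 CPM, none near the saline range, for a log2 fold change of 5.96 ± 0.312. Gpr65, a proton sensor that raises cAMP, rested at 9.69 to 11.9 CPM in saline microglia and was at 158, 147, 180 and 129 CPM in LPS microglia, a log2 fold change of 4.56 ± 0.147. Gpr18 was at 0.47, 1.22, 0.659 and 0.993 CPM in saline and at 107, 97.2, 116 and 125 CPM in LPS microglia, a log2 fold change of 7.87 ± 0.279.

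Gpr31b was the receptor with the fewest molecules. A total of 1 UMI was counted over the 4 saline libraries of microglia, and 939 over the 4 LPS libraries, where it stood at 3.44, 3.99, 4.94 and 3.25 CPM. The ratio of the pooled rates was 511 with a 95% exact counting interval of 91.4 to 20190. In the other classes it had at most 10 UMIs over 4 libraries, and in dendritic cells, B-cells, T-cells and NKs it had none, where 3 UMIs would have come to 3.36 CPM or more in LPS libraries.

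**Figure D1:**
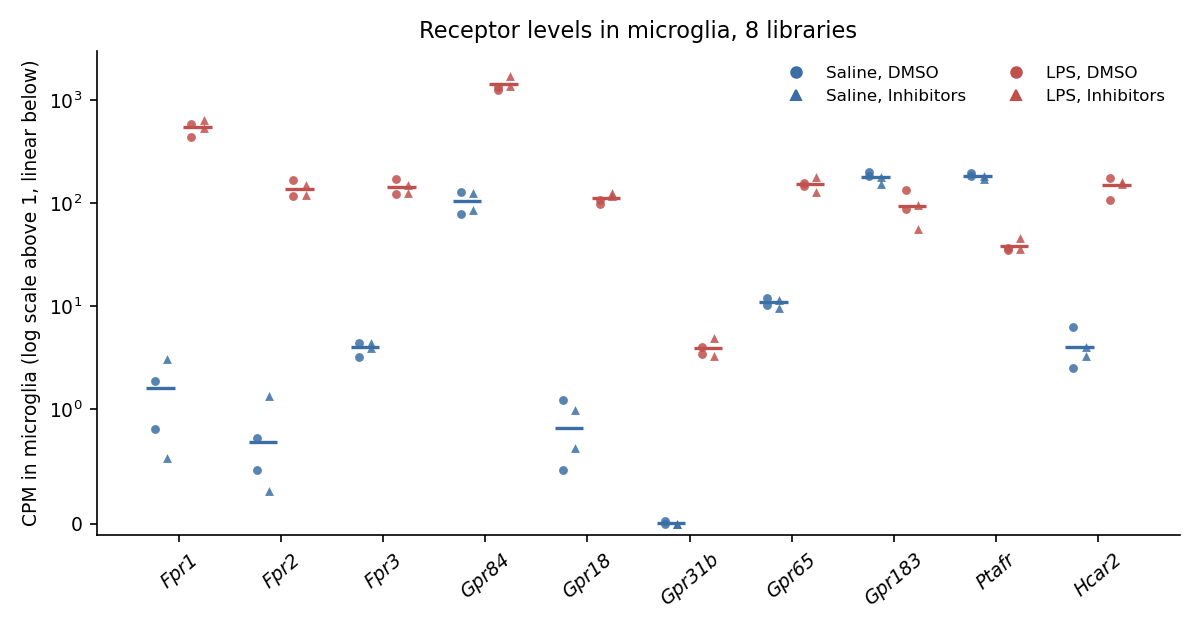
Level of each of the 10 receptor genes in microglia, 1 point a library, with saline in blue and LPS in red, DMSO as circles and inhibitors as triangles, on a CPM axis that is logarithmic above its linear range; the short lines are group means. For 8 genes the LPS points lie above the saline points, and for Gpr183 and Ptafr they lie below, where the edgeR log2 fold change of Gpr183 is only -0.20 ± 0.203.

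The 2 genes with lower CPM in LPS microglia differed in how far that held. Ptafr, the receptor for platelet-activating factor, was at 196, 183, 183 and 170.2 CPM in saline DMSO 1 and 2 and saline inhibitors 1 and 2. In the matching LPS libraries it was at 36.5, 34.8, 46.3 and 35.5 CPM, each far below saline, for a log2 fold change of -1.51 ± 0.102. Gpr183 was at 182, 200.2, 153 and 179 CPM in saline microglia and 87.2, 135, 95.4 and 56.6 CPM in LPS microglia. Its log2 fold change was -0.20 ± 0.203 with TMM scaling and -0.93 with total counts. Without LPS DMSO replicate 2, the highest LPS library, it was -0.42 with TMM. A microglial cell held on average 0.503 Gpr183 UMIs after saline and 0.515 after LPS. The Gpr183 difference therefore depended on the scale on which it was expressed.

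Gpr18 (chr14:121911253-121915781) and Gpr183 (chr14:121952551-121965195) lie on the minus strand in introns of Ubac2 (chr14:121878620-122021034, plus strand; GENCODE, GRCm38) and share no exon base with it. Without strand, only reads from unspliced Ubac2 RNA could not be told apart from those of the receptors. Ubac2 itself stood at 64.8 ± 2.68 CPM in saline and 62.2 ± 7.64 CPM in LPS microglia (SD, n = 4 each), with a log2 fold change of 0.70 ± 0.137 on the TMM scale used for the receptors. The other receptor genes are at chr17:17876471-17883940 (Fpr1, minus), chr17:13051014-13052296 (Gpr31b, minus), chr12:98268635-98276644 (Gpr65, plus), chr15:103308235-103310612 (Gpr84, minus), chr5:123863570-123865499 (Hcar2, minus) and chr4:132564067-132582683 (Ptafr, plus) on the same build.

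Neutrophil markers lay in overlapping ranges in saline and LPS microglia. The summed level of the 10 markers was 370.3 to 612.7 CPM in saline and 430.8 to 580.3 CPM in LPS libraries, and all 10 markers were detected in each. This sum includes S100a8 and Csf3r, which were left out of the gate because up to 13.8% and 22.8% of microglia carried them. It therefore cannot show how much neutrophil RNA the microglia held. S100a9, a neutrophil calcium-binding protein, had 23.0 CPM in LPS microglia and 86200 CPM in LPS neutrophils.

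Macrophages, marked by Mrc1, Pf4 and Cd163, showed the formyl peptide receptors at higher levels in LPS libraries as well. Fpr1 was at 33.0 and 44.3 CPM in saline DMSO and at 30.7 and 32.4 CPM in saline inhibitor macrophages. The LPS macrophages had 434, 307, 398 and 443 CPM in DMSO 1, DMSO 2, inhibitors 1 and inhibitors 2, with no overlap and a log2 fold change of 3.87 ± 0.181. Other markers moved in this class as well. The summed neutrophil markers were at 217.4 to 400.4 CPM in saline and 613.8 to 811.9 CPM in LPS macrophages, and the summed macrophage markers at 16500 to 17770 and 5191 to 5928 CPM, and their part in the receptor values was not tested. Fpr2 went from 8.16 ± 3.21 to 243 ± 28.3 CPM (SD, n = 4 each) and Fpr3 from 9.74 ± 1.01 to 255 ± 51.8 CPM. Gpr183 was at 160.4, 206, 136 and 170.0 CPM in saline and at 33.6, 42.4, 31.7 and 15.2 CPM in LPS macrophages, a log2 fold change of -2.11 ± 0.239. Ptafr was lower too, from 178 ± 9.51 to 73.0 ± 9.36 CPM, and Gpr65 overlapped, at 96.1 ± 7.91 and 85.2 ± 10.1 CPM. For Gpr65 the log2 fold change was 0.17 ± 0.139 with TMM and -0.20 with total counts. Of the 7 receptor genes tested in macrophages, 4 had all LPS libraries higher and 2 all lower, and of 7947 genes 12.9% and 35.0% did.

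Monocytes had low receptor levels in saline libraries, with only 15 Fpr1, 20 Fpr2 and 33 Fpr3 UMIs over 659 cells. The summed monocyte markers in this class were at 9230 to 11110 CPM in saline and 5797 to 7134 CPM in LPS libraries. The summed neutrophil markers were at 282 to 4061 CPM in saline and 322 to 573 CPM in LPS libraries. The part of these differences in the receptor values was not tested. In LPS monocytes Fpr1 was at 157, 112, 188 and 139 CPM (DMSO 1, DMSO 2, inhibitors 1, inhibitors 2) against 0 to 10.4 CPM in saline. The Fpr1 log2 fold change was 4.63 ± 0.334, and those of Fpr2 and Fpr3 were 4.54 ± 0.29 and 3.89 ± 0.307. Gpr183, at 104, 33.3, 75.9 and 47.7 CPM in saline monocytes, was at 4.39, 11.1, 8.80 and 7.81 CPM after LPS, a log2 fold change of -2.87 ± 0.353. Ptafr, in contrast to microglia and macrophages, had a higher mean in LPS monocytes (49.2 ± 18.7 and 87.6 ± 28.3 CPM), with overlapping libraries. By batch the Ptafr means were 58.9 and 109.7 CPM in batch 1 and 39.4 and 65.6 CPM in batch 2. Gpr65 (56.5 ± 15.4 and 79.8 ± 11.8 CPM) and Gpr18 (22.4 ± 10.2 and 17.4 ± 2.44 CPM) overlapped. Of the 8 receptor genes tested in monocytes, 4 were separated with LPS higher and 1 with LPS lower, beside 12.6% and 15.2% of 10392 genes.

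Neutrophils had the highest mean of each formyl peptide receptor under either treatment, although Fpr3 overlapped monocytes and dendritic cells in saline libraries. Fpr1 was at 132 and 207 CPM in saline DMSO, 91.0 and 255 CPM in saline inhibitor, 1583 and 986 CPM in LPS DMSO and 1473 and 1175 CPM in LPS inhibitor neutrophils. These groups did not overlap, with a log2 fold change of 2.88 ± 0.309. The summed monocyte markers in this class were at 1240 to 2942 CPM in saline and 4328 to 7099 CPM in LPS libraries, and their part in the receptor values was not tested. Fpr2 rested on 72 saline and 1844 LPS UMIs and went from 88.4 ± 63.6 to 709 ± 91.7 CPM, and Fpr3 from 73.6 ± 50.7 to 731 ± 137 CPM. Ptafr overlapped, at 148, 121, 387 and 154 CPM in saline and 263, 147, 339.6 and 196 CPM in LPS neutrophils. Gpr65 overlapped as well (55.6 ± 23.8 and 66.7 ± 9.31 CPM). Of the 6 receptor genes tested in neutrophils 4 were separated with LPS higher and 0 with LPS lower, and of 4869 genes 11.6% and 13.6% were.

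**Figure D2:**
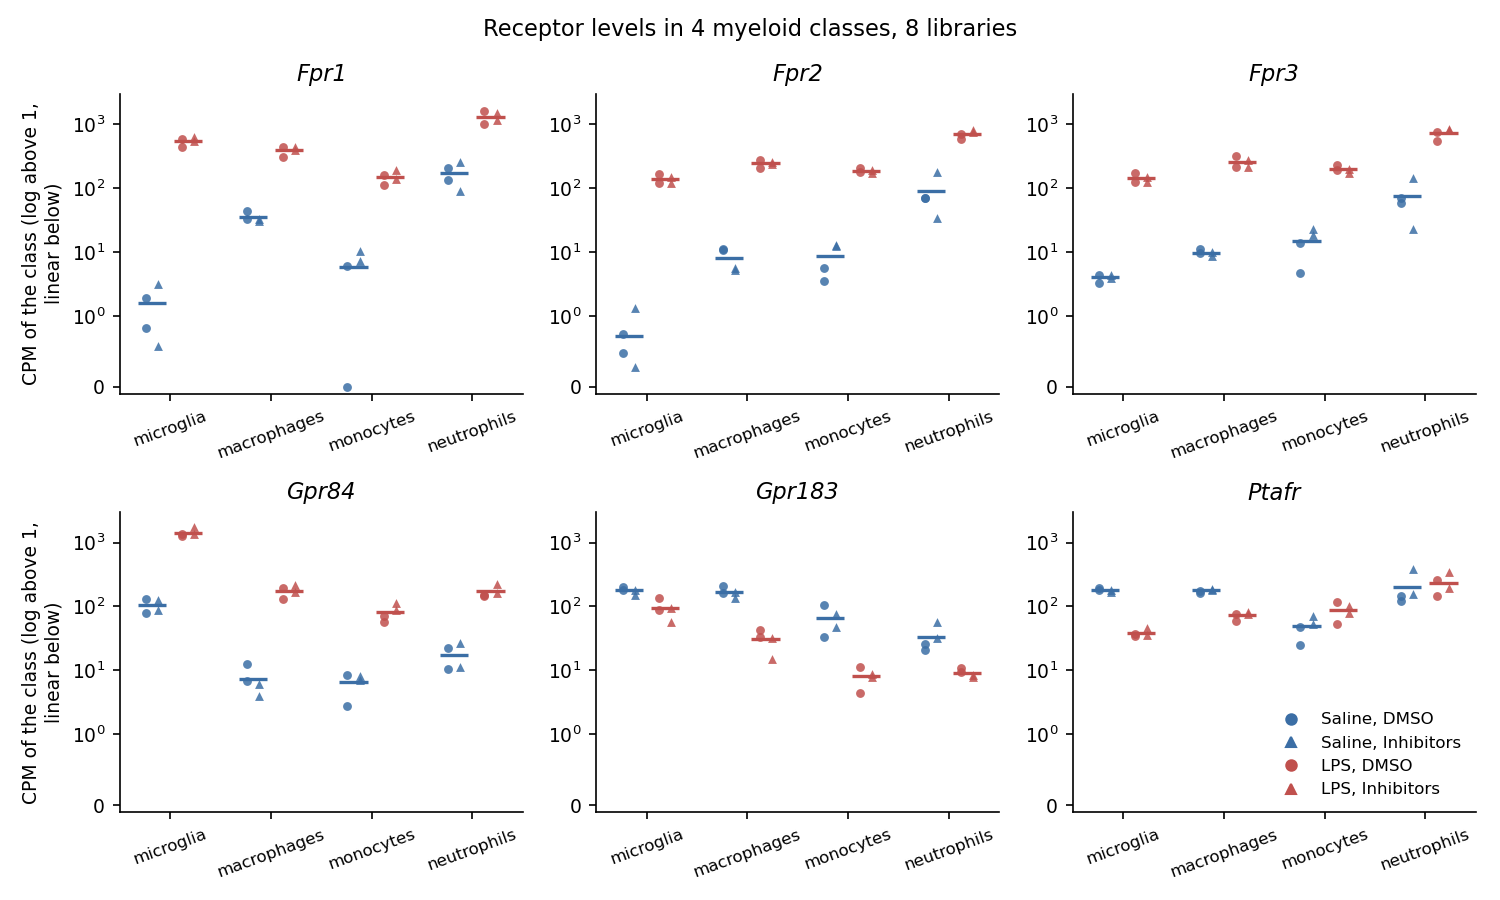
Level of Fpr1, Fpr2, Fpr3, Gpr84, Gpr183 and Ptafr in microglia, macrophages, monocytes and neutrophils, 1 point a library (saline blue, LPS red, DMSO circles, inhibitors triangles), on a CPM axis that is logarithmic above 1 and linear below. Fpr1, Fpr2 and Fpr3 lie higher after LPS in each of these classes, and Gpr183 lies lower in each, though it was too sparse to be fitted in neutrophils.

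Free RNA limits what the lower levels mean. Lymphocytes (B-cells, T-cells and NKs together) are not known for Fpr1, yet in LPS libraries they held 66.4 ± 40.2 CPM of it (SD, n = 4). They also held 139 ± 70.4 CPM of Gpr84, and whether they make it themselves was not tested. In T-cells Gpr84 went from 8.16 ± 2.28 to 166 ± 76.6 CPM without overlap, a log2 fold change of 4.46 ± 0.385. Free RNA was estimated at 51.0% of the Gpr84 UMIs in LPS T-cells. The Gpr84 level of LPS monocytes (82.5 ± 24.7 CPM), macrophages (178 ± 37.7 CPM) and neutrophils (171 ± 37.7 CPM) lay in or near the lymphocyte range of 81.3 to 229.5 CPM. From the markers of the other classes found in a class, free RNA was estimated to give 898 of the 1047 Gpr84 UMIs in LPS monocytes, 275 of 431 in neutrophils and 213 of 473 in macrophages. The Gpr84 log2 fold changes were 3.60 ± 0.311, 3.16 ± 0.325 and 5.06 ± 0.26 in that order. In saline the estimate came to 91.4% of Gpr84 UMIs in monocytes, 53.9% in neutrophils and 110% in macrophages, so no fold change is given with free RNA subtracted. How much of these changes was free RNA was not tested further. The share of LPS cells with a Gpr84 UMI after thinning to 800 UMIs was 5.13% to 11.8% in lymphocytes, 4.18% to 11.5% in monocytes, 7.98% to 15.9% in macrophages and 10.9% to 16.6% in neutrophils, and the ranges of all 3 myeloid classes overlapped that of lymphocytes.

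For Fpr1 in the LPS myeloid classes the free RNA estimate came to 2.11% of UMIs in neutrophils, 2.23% in microglia, 5.01% in macrophages and 11.7% in monocytes. In LPS lymphocytes, which are not known for Fpr1, it came to only 5.42% of UMIs in B-cells, 26.4% in T-cells and 28.1% in NKs, so the estimate leaves most Fpr1 UMIs of these classes unaccounted for, and how close it is in the other classes was not tested. It was a larger share where the gene was rare, at 66.0% of Fpr1 and 41.5% of Fpr2 UMIs in saline microglia and at 33.2% and 45.1% in LPS dendritic cells. With this estimate subtracted, the log2 fold change of Fpr1 in microglia was 10.02 in place of 9.20. The estimate took 22.5 of 30 Fpr1 UMIs in saline DMSO 1, 40.4 of 48 in saline DMSO 2 and 6.70 of 81 in saline inhibitors 2. In saline inhibitors 1 it exceeded the count (52.6 against 26), which was set to 0. The value of 10.02 therefore rests largely on 1 saline library. Thinned to 800 UMIs, 24.9% to 34.0% of LPS microglia and 55.0% to 69.6% of LPS neutrophils had a Fpr1 UMI, compared with 0.862% to 4.49% of LPS lymphocytes. Without thinning these shares were 59.5% to 70.8%, 68.4% to 83.4% and 2.59% to 13.4%. For Hcar2, 8.25% to 13.3% of LPS microglia and 0% to 1.72% of LPS lymphocytes had a UMI after thinning, and 31.8% to 46.3% and 1.72% to 5.88% before. Median depth in LPS libraries was 4895 to 5632.5 UMIs in microglia and 1672 to 3116.5 in the 3 lymphocyte classes.

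Gpr183 had libraries that separated in both directions, depending on the class. In dendritic cells it was at 134 and 40.5 CPM in saline DMSO and 99.5 and 37.7 CPM in saline inhibitor libraries, and at 175, 186, 232 and 171 CPM after LPS. The dendritic cell groups did not overlap, with LPS higher and a log2 fold change of 1.10 ± 0.341 on 40 saline and 129 LPS UMIs. With a looser gate for the class this value was 0.59, and in the DMSO libraries alone it was 0.87. The summed level of the dendritic cell markers in this class was 2607 to 6156 CPM in saline and 20180 to 23750 CPM in LPS libraries, while the marker Flt3 had means of 307 and 207 CPM. Ubac2, which holds Gpr183 in an intron, was at 37.4 ± 36.1 and 104.7 ± 32.8 CPM (SD, n = 4 each) in the same cells. The part of these differences in the Gpr183 result was not tested. B-cells went the other way, from 109 ± 33.2 to 12.5 ± 11.2 CPM (log2 fold change -3.09 ± 0.571), although only 4 Gpr183 UMIs were counted in 131 LPS B-cells. In this class the summed B-cell markers were at 7903 to 8512 CPM in saline and 3975 to 5985 CPM in LPS libraries, and the summed monocyte markers at 769 to 851 and 1367 to 2529 CPM, and their part in the result was not tested. T-cells overlapped at 91.0 ± 21.3 and 68.7 ± 13.9 CPM. In LPS libraries Gpr183 was thus highest in dendritic cells and did not overlap the next class, microglia, and in saline libraries microglia and macrophages led with overlapping ranges.

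Gpr18 had its highest saline mean in B-cells, overlapping dendritic cells. B-cells held 82.5 ± 40.5 CPM after saline and 59.6 ± 23.4 CPM after LPS, with overlap. T-cells went from 27.9 ± 12.1 to 84.4 ± 16.3 CPM and NKs from 30.6 ± 21.4 to 115 ± 21.0 CPM, and in neither class did the libraries overlap. The summed T-cell markers in T-cells were at 5871 to 7514 CPM in saline and 3095 to 4664 CPM in LPS libraries. The summed NK markers in NKs overlapped (24210 to 33820 and 30820 to 44640 CPM), while Ncr1 had means of 867 and 237 CPM. The part of these differences in the Gpr18 result was not tested. Ubac2, which holds Gpr18 in an intron and shares no exon base with it, was at 58.8 ± 13.04 and 105.0 ± 13.3 CPM in T-cells and 88.8 ± 6.70 and 149 ± 11.02 CPM in NKs, and the part of its unspliced RNA in the Gpr18 result was not tested. LPS NKs and LPS microglia (111 ± 11.8 CPM) had overlapping Gpr18 levels. LPS macrophages had the lowest mean at 12.6 ± 5.04 CPM, overlapping monocytes, dendritic cells and neutrophils. Gpr65 in T-cells was at 49.95 ± 19.5 and 106 ± 46.9 CPM and in NKs at 100.1 ± 37.2 and 106 ± 23.0 CPM, with overlap in both.

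The order of the classes differed from gene to gene. For Fpr1 in LPS libraries, neutrophils (1304 ± 273 CPM) lay above microglia (546 ± 84.6 CPM), which overlapped macrophages (395 ± 62.2 CPM), and monocytes (149 ± 32.3 CPM) followed without overlap. For Fpr2 the order was neutrophils, macrophages, monocytes and microglia, with no overlap between neighbours. Ptafr was led in saline libraries by neutrophils, microglia and macrophages, which overlapped, and in LPS libraries by neutrophils (237 ± 83.6 CPM) alone, with microglia behind monocytes, macrophages and dendritic cells at 38.3 ± 5.38 CPM. Gpr65 had its lowest saline mean in microglia (10.9 ± 1.07 CPM), overlapping B-cells and dendritic cells, and its highest LPS mean there (154 ± 21.1 CPM), overlapping T-cells. Hcar2 after LPS was at 149 ± 28.9 CPM in microglia and 33.7 ± 16.9 CPM in neutrophils, which came next without overlap.

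**Figure D3:**
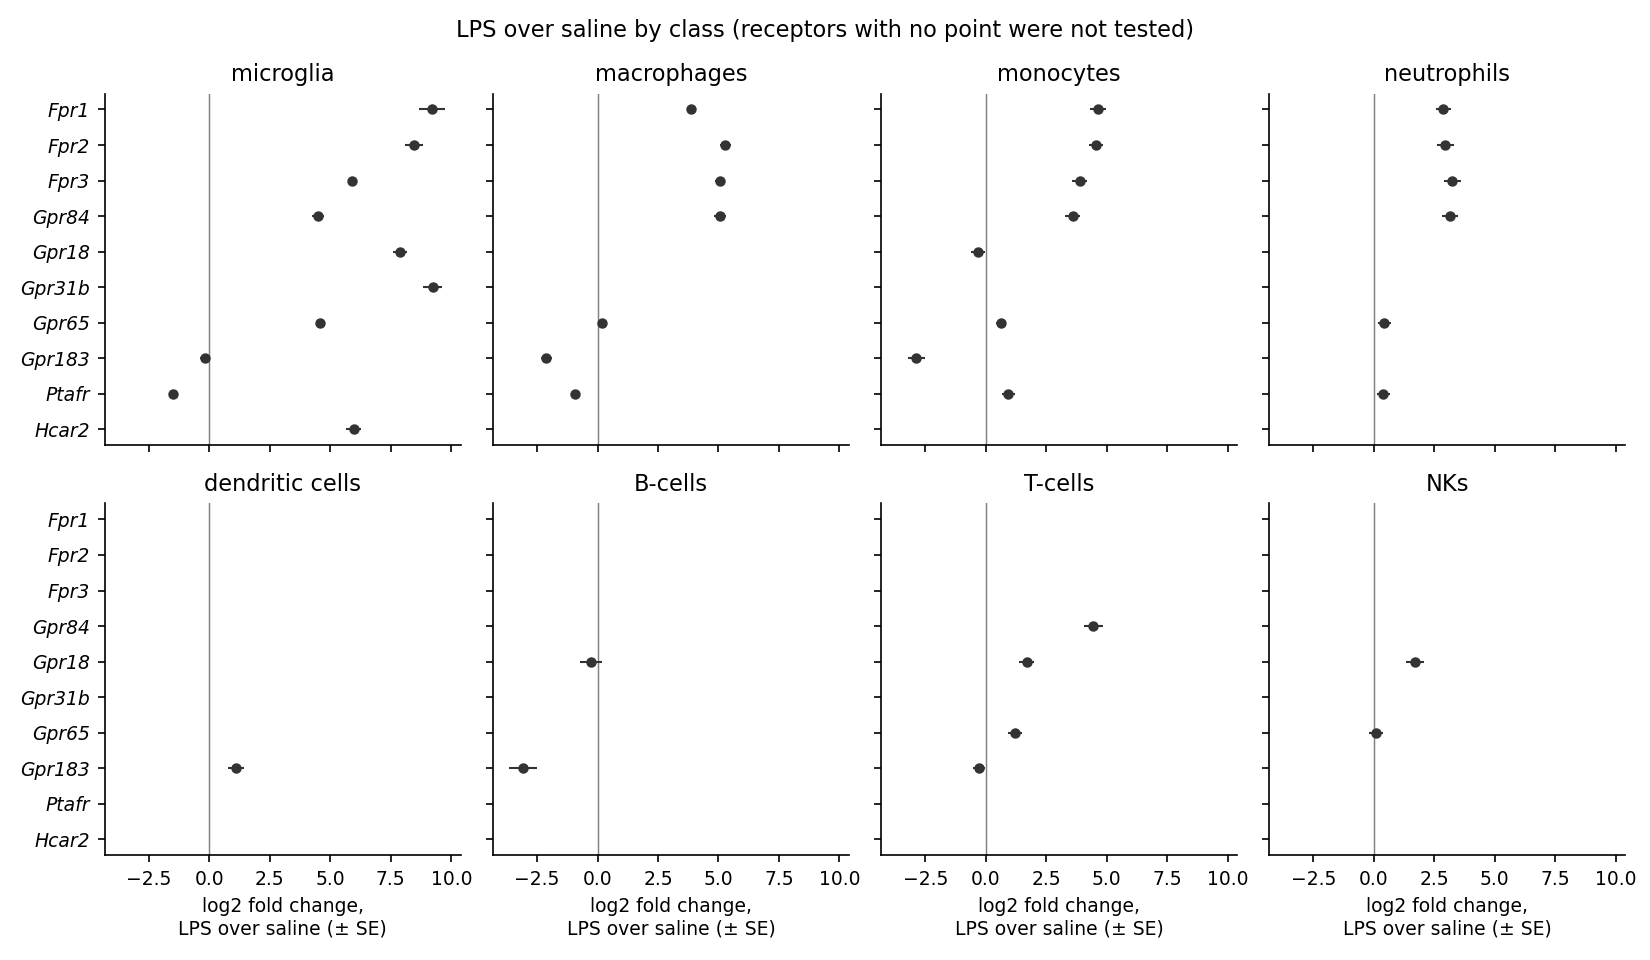
Log2 fold change of LPS over saline for each receptor gene in each class in which it passed the filter, from edgeR with TMM scaling, with bars of ± 1 SE. Fpr1, Fpr2 and Fpr3 are above 0 in microglia, macrophages, monocytes and neutrophils, and Gpr183 runs from -3.09 in B-cells to 1.10 in dendritic cells.

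The question of whether dissociation itself altered the receptors was addressed by comparing DMSO with inhibitor libraries, with the in vivo treatment in the fit. By the quasi-likelihood test of edgeR, adjusted over all genes of a class by Benjamini and Hochberg, 0 of the 40 tested pairs of a receptor gene and a class were called, and 4 had an unadjusted p under 0.05. The lowest adjusted p was 0.859. Over all classes and genes 168 of 54428 pairs were called (0.309%), and DESeq2 called 0 of the 40, with 1 at an unadjusted p under 0.05. The median standard error of the log2 difference was 0.267. In microglia the same test called all 10 immediate-early genes tested, such as Fos, Egr1 and Jun, higher in DMSO libraries, with a median log2 difference of 3.42.

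In microglia the differences between DMSO and inhibitors were small for most receptors. The log2 difference of Gpr65 was -0.01 (95% interval -0.30 to 0.28), that of Fpr3 -0.03 (-0.31 to 0.25) and that of Ptafr -0.08 (-0.31 to 0.15). The intervals were wider for Hcar2 (-0.59 to 0.57), Gpr84 (-0.64 to 0.30) and Fpr1 (-1.14 to 0.53). Gpr183 had the largest positive value in microglia, 0.35 (-0.04 to 0.75), with 191 and 166 CPM in saline DMSO and saline inhibitor libraries and 111 and 76.0 CPM in the LPS libraries. In macrophages its value was 0.37 (-0.06 to 0.81). The 4 pairs at an unadjusted p under 0.05 were Gpr18 in B-cells (-0.93, -1.66 to -0.20), Gpr18 in T-cells (0.63, 0.02 to 1.25), Gpr84 in monocytes (-0.50, -0.98 to -0.03) and Gpr84 in T-cells (-0.71, -1.40 to -0.01). None passed the adjustment, by edgeR's quasi-likelihood test.

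**Figure D4:**
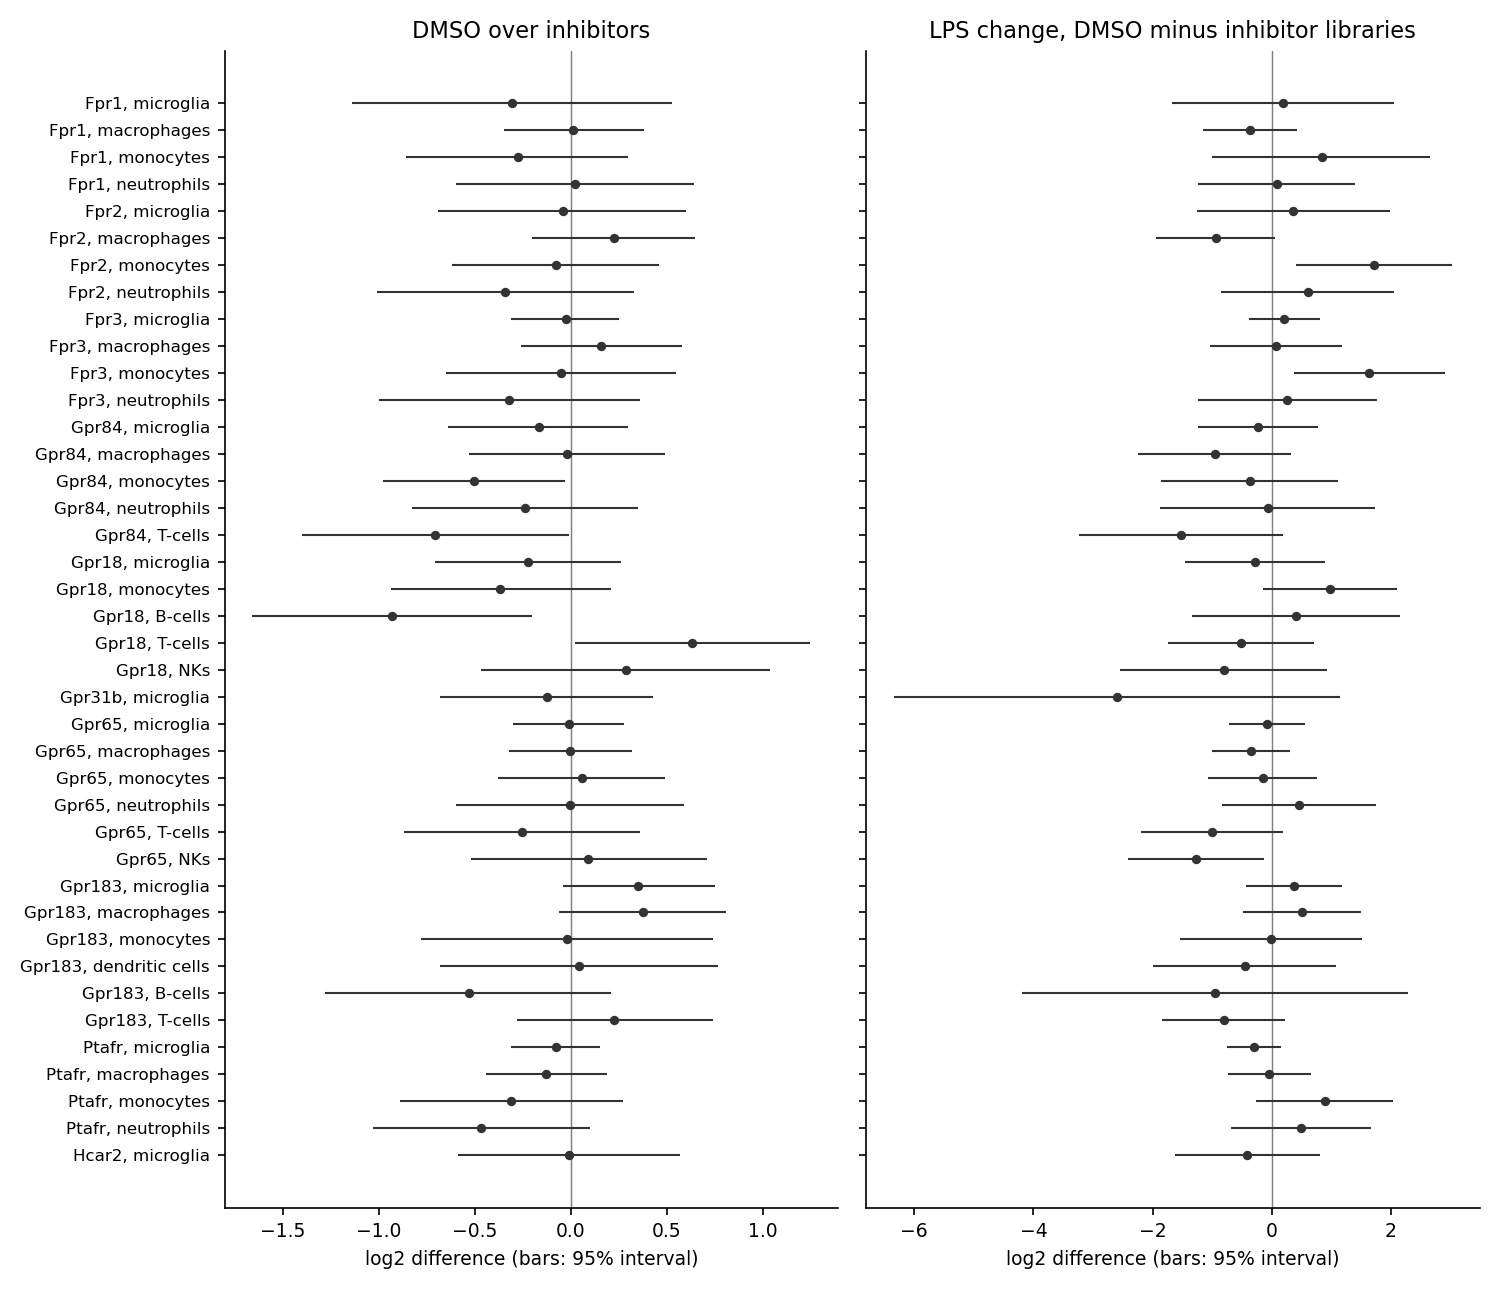
Log2 difference of DMSO over inhibitor libraries for the 40 pairs of receptor gene and class that were tested, from edgeR, with 95% intervals as bars. Most intervals cross 0, the 4 that do not are Gpr18 in B-cells and T-cells and Gpr84 in monocytes and T-cells, and none of the 40 had an adjusted p under 0.05.

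Whether the LPS difference depended on the dissociation treatment was tested as an interaction. Of the 40 pairs, 0 were called by edgeR's quasi-likelihood test and 3 had an unadjusted p under 0.05, with a lowest adjusted p of 0.694. Across all genes and classes 9 of 54428 pairs were called (0.0165%). DESeq2 gave an adjusted p for 39 of the pairs and called 0, with 2 at an unadjusted p under 0.05. The interaction was measured less precisely than either treatment, with a median standard error of 0.578. Its filter on low counts was grouped by the injection, so a pair could enter through its LPS libraries alone. Gpr31b in microglia had 1 UMI in saline and 939 in LPS libraries, and Gpr84 in neutrophils had 15 and 431. With so few saline UMIs to split by dissociation treatment, such pairs could hardly be called, and nothing is read from them. For microglia the difference in log2 change (DMSO minus inhibitors) was -0.08 (-0.71 to 0.56) for Gpr65, 0.21 (-0.39 to 0.81) for Fpr3, -0.30 (-0.75 to 0.16) for Ptafr and 0.18 (-1.68 to 2.05) for Fpr1. The 3 unadjusted pairs were Fpr2 in monocytes (1.71, 0.40 to 3.02), Fpr3 in monocytes (1.64, 0.38 to 2.90) and Gpr65 in NKs (-1.28, -2.42 to -0.13), and Fpr2 and Fpr3 overlap in the annotation as described.

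Genes that make, clear or transmit the signals of these receptors were then tested between LPS and saline, 105 genes in 10 lists that did not include the receptors. The lists were chosen with earlier results of these data known, so their counts and p-values are not independent evidence. Over 8 classes, 368 pairs of gene and class could be tested by edgeR, and 91 were called higher and 104 lower after LPS, or 24.7% and 28.3%. Of all 54428 pairs 20.7% were called higher and 22.9% lower. In microglia 33 of 91 list genes were higher (36.3%) and 31 lower (34.1%), beside 30.0% and 35.2% of all genes. In macrophages 15 of 57 were higher and 25 lower (26.3% and 43.9%, beside 24.4% and 25.2%). Monocytes had 17 higher and 17 lower of 71, with 13.9% and 13.9% of all genes, and neutrophils 10 and 10 of 51, with 13.3% and 14.3%. With total counts in place of TMM the microglial list genes split into 15 higher and 58 lower, beside 2866 and 13736 of all 20322 genes, and those of macrophages into 9 and 30, beside 1150 and 3252 of 7947. Adjusted p-values of list genes are from edgeR's quasi-likelihood test. Counts by list below are on the TMM scale unless total counts are named.

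Among the peptide and protein ligands of the formyl peptide receptors, 4 of 8 genes tested in microglia were higher after LPS and 0 lower (median log2 fold change 0.35, all genes -0.18). With total counts in place of TMM, 3 of them were called higher and 4 lower. Saa3, an acute-phase serum amyloid A, rose from 84.9 ± 64.8 to 33140 ± 3811 CPM (log2 fold change 9.29 ± 0.722, adjusted p 2.84e-07). In macrophages 3 of 4 genes were higher, and Saa3 rose from 97.6 ± 79.9 to 182100 ± 7023 CPM (11.18 ± 0.752, adjusted p 1.44e-08). T-cells, which are not known to make it, held 13370 ± 5572 CPM of Saa3 after LPS, beside 50930 ± 9107 CPM in monocytes and 7822 ± 1983 CPM in neutrophils. How much of the Saa3 level of any class, microglia and macrophages included, came from free RNA or from other cells was not tested. Saa1 had no UMI in saline macrophages and was at least 365-fold higher after LPS, against a floor of 3 UMIs over the 4 libraries. In neutrophils 1 of 3 genes was higher and Camp, the precursor of the antimicrobial peptide CRAMP, fell from 20150 ± 9588 to 5380 ± 2105 CPM (-1.88 ± 0.472, adjusted p 0.0075). Monocytes had 2 higher and 2 lower of 5, with Ctsg, the granule protease cathepsin G, at -6.34 ± 0.985 (adjusted p 0.000343). Saline monocytes carried neutrophil RNA unevenly, with 282 to 4061 CPM of the summed neutrophil markers (322 to 573 CPM after LPS) and 4.29 to 793 CPM of the granule gene Ngp, and the part of this in the Ctsg value was not tested.

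Of the 4 enzymes around oxysterol ligands of Gpr183, 2 were called higher and 2 lower in microglia on the TMM scale. One of the higher genes, Hsd3b7, named here after its values were seen, had a log2 fold change of 0.53 ± 0.128, less than the offset of 0.75 between TMM and CPM, and its mean CPM was lower after LPS (23.1 ± 2.67 and 19.97 ± 1.80). Ch25h, which makes 25-hydroxycholesterol, rose from 2.72 ± 0.743 to 419 ± 191 CPM in microglia (8.02 ± 0.467, adjusted p 2.81e-08) and from 12.2 ± 11.2 to 205 ± 124 CPM in macrophages (4.63 ± 0.534, adjusted p 4.52e-06). Cyp7b1, which adds the 7-alpha hydroxyl group, fell by 0.86 on the log2 scale in microglia (SE 0.135, adjusted p 0.000124). Cyp27a1, a sterol 27-hydroxylase, was lower in microglia (-2.63 ± 0.134), macrophages (-5.21 ± 0.274) and monocytes (-3.97 ± 0.331), all past the adjusted threshold. In macrophages 1 of 3 was higher and 1 lower, in monocytes 0 higher and 1 lower of 3, and in neutrophils none of the 4 could be tested.

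Enzymes of platelet-activating factor, the ligand of Ptafr, included 1 of 8 higher and 3 lower in microglia, 2 and 1 of 7 in macrophages, 3 and 0 of 7 in monocytes and 1 and 0 of 5 in neutrophils. With total counts 1 of these enzymes was higher and 7 were lower in microglia. Pla2g7, the secreted acetylhydrolase that degrades the mediator, was higher in all 4 classes. It went from 7.77 ± 0.870 to 46.0 ± 9.09 CPM in microglia (3.30 ± 0.156, adjusted p 5.28e-09) and from 222 ± 114 to 1771 ± 271 CPM in monocytes (3.09 ± 0.329, adjusted p 1.72e-05). Pafah1b3, a catalytic subunit of the intracellular acetylhydrolase, was lower in microglia (-1.43 ± 0.202) and macrophages (-0.91 ± 0.293).

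Of the other chemoattractant receptors, 4 of 10 were higher and 3 lower in microglia, 1 and 4 of 6 in macrophages, 5 and 0 of 9 in monocytes and 2 and 1 of 6 in neutrophils. With total counts 3 of these receptors were higher and 5 lower in microglia. C5ar1, the signalling receptor for complement C5a, went from 105 ± 7.14 to 502 ± 80.9 CPM in microglia (2.996 ± 0.133, adjusted p 3.47e-09). C5ar2, which binds the same ligand without coupling to G proteins, went from 108 ± 6.95 to 11.9 ± 3.55 CPM in the same cells (-2.45 ± 0.173, adjusted p 1.31e-07) and was lower in macrophages (-3.63 ± 0.275) and neutrophils (-1.47 ± 0.322). C3ar1, the receptor for C3a, was higher in microglia (2.44 ± 0.135), monocytes (2.88 ± 0.205) and neutrophils (2.54 ± 0.343) and lower in macrophages (-0.83 ± 0.149). The remaining formyl peptide receptor family genes, Fpr-rs3, Fpr-rs4, Fpr-rs6 and Fpr-rs7, did not pass the count filter in any class.

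Lists for ketone bodies, lipoxygenases and related receptors were mixed on the TMM scale. In microglia 3 of 9 ketone body and monocarboxylate genes were higher and 3 lower, including the transporter Slc16a7 (-2.61 ± 0.0884) and Oxct1, which starts the use of ketone bodies (-1.35 ± 0.132). With total counts 0 of these genes were higher and 5 lower in microglia. Oxct1 was lower in macrophages, monocytes and neutrophils as well, where the lists had 1 higher and 2 lower of 4, 2 and 2 of 6, and 0 and 1 of 4. Among lipoxygenase and N-acyl lipid enzymes 4 were higher and 3 lower of 8 in microglia, led by Napepld, which releases N-acylethanolamines (3.43 ± 0.101, adjusted p 3.32e-10). With total counts 3 of these enzymes were higher and 5 lower in microglia. The counts for this list were 0 and 2 of 4 in macrophages, 1 and 0 of 5 in monocytes and 1 and 1 of 4 in neutrophils, where Alox5ap, the helper protein of 5-lipoxygenase, rose from 909.6 ± 239.7 to 2651 ± 442 CPM. Other proton and fatty acid receptors had 3 higher and 3 lower of 9 in microglia, 1 higher of 1 in macrophages (Gpr35, 4.07 ± 0.335), 0 and 1 of 3 in monocytes and 0 and 1 of 2 in neutrophils. With total counts the microglial split of this list was 1 higher and 4 lower.

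G proteins and their effectors were higher in 7 and lower in 9 of 23 in microglia, 5 and 11 of 19 in macrophages, 2 and 5 of 21 in monocytes and 2 and 1 of 17 in neutrophils. With total counts the microglial split of this list was 2 higher and 18 lower. Pik3r5, a regulatory subunit of the PI3-kinase that beta-gamma subunits activate, was higher in microglia (1.67 ± 0.166) and macrophages (2.34 ± 0.181). Gna12 was lower in both (-1.61 ± 0.113 and -1.81 ± 0.144). Receptor desensitization genes were higher in 5 and lower in 5 of 12 in microglia, 1 and 4 of 9 in macrophages, 2 and 6 of 12 in monocytes and 3 and 4 of 10 in neutrophils. With total counts 1 desensitization gene was higher and 8 were lower in microglia. Rgs10 and Rgs2, which shorten G protein signals, were lower in microglia (-1.93 ± 0.136 and -2.15 ± 0.188), as was Arrb1, a beta-arrestin (-2.56 ± 0.182). For Rgs10 the levels in microglia were 1282 ± 45.6 and 201 ± 19.2 CPM.

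Likeness of patterns was measured as Pearson correlation of log2(CPM + 1) over 16 means, 1 for each of 8 classes under saline and LPS, among 12636 genes. The points share libraries and free RNA, so the values only describe. Fpr2 and Fpr3 overlap in the annotation and may share reads, so the likeness between these genes is not independent of the counting. Fpr1 was nearest to Fpr2 (0.960), Fpr3 (0.957) and Zc3h12a (0.932), Fpr2 to Fpr3 (0.970), Fcgr4 (0.968) and Fpr1 (0.960), and Fpr3 to Fpr2 (0.970), Zc3h12a (0.964) and Fpr1 (0.957). Gpr84 was nearest to Ctsl (0.918), Slc13a3 (0.914) and Marco (0.910), and Hcar2 to Zfp811 (0.877), Gpr84 (0.871) and Marco (0.854). Ptafr was nearest to Rhbdd1 (0.948), Tom1l2 (0.936) and Zfand3 (0.934), and Gpr183 to Zfp74 (0.840), Socs5 (0.836) and Msantd2 (0.814). Gpr65 had no gene above 0.748 (Aoah, then Lilrb4a at 0.735 and Galnt6 at 0.681), Gpr31b none above 0.788 (Milr1, then Ncln at 0.771 and Ccdc86 at 0.767), and Gpr18 was nearest to Btf3 (0.833), Rps27a (0.830) and Atp5l (0.801).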

How the data were processed

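CD45+ brain cells of 8 mice were profiled by PIPseq, 1 library a mouse. The authors processed reads with PIPseeker (STAR, GRCm39) and deposited raw UMI counts per gene and barcode with no normalization. The labels name Seurat 4 among the tools. Strand and multi-gene handling in the counting are not given in the sources used here. From the deposited counts, barcodes with at least 800 and under 45000 UMIs, at least 250 and under 6500 genes and a mitochondrial share under 5% were kept as cells. At most 25 cell barcodes were shared by any 2 libraries. A cell entered a class when it carried at least 3 markers of that class (2 for microglia) above what free RNA would give, with a Poisson p limit of 0.01, and when no other class had over 0.5 of that number of markers. Markers seen in over 10% of microglia were not used to gate other classes. Summed marker levels still include them (Stab1 for macrophages, S100a8 and Csf3r for neutrophils, Fscn1 for dendritic cells). Free RNA in a class was scaled from the markers of other classes (0.25 quantile) to the profile of barcodes under 100 UMIs. Scrublet (scanpy 1.11.5) marked under 0.5% of cells by its own threshold and so did not work. Doublets were limited by the gate, and removal of the top 8% of scores was an alternative.

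UMIs were summed per library and class (at least 10 cells) and fitted with edgeR 4.0.16 in R 4.3.3 (TMM, filterByExpr, quasi-likelihood F test, Benjamini-Hochberg over all genes of a class, threshold 0.05). LPS against saline was fitted with no covariate, DMSO against inhibitors with the in vivo treatment, and the interaction with both. DESeq2 1.42.0 was an alternative. The fits were run on simulated counts drawn with the same dispersion for every gene and no capture-day effect. That simulation does not show how the fits perform on the real libraries. Replicate numbers equal the batch in the labels, which is read here as the capture day, so same-numbered libraries are taken as paired by day. Deviations of same-day libraries from their group means correlated at 0.165 to 0.666 in microglia and -0.076 to 0.298 in the other classes (6 pairs each). The block on that day is an alternative. With 2 mice in each of the 4 groups, p-values measure the spread between these mice, with the capture day in it. In the fit of LPS against saline, which has no covariate, that spread also holds the difference between the dissociation treatments. Intervals of counts cover counting error only.

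The 10 genes and all lists were chosen with earlier results of these data known, and the gate limits were set after seeing the data. Named genes are the 10 receptors, at most 3 genes of each list and class with the largest absolute log2 fold change among those called, and the 3 nearest genes by correlation. A gene named by this rule in some classes is at times given in others too, such as C3ar1 in microglia and macrophages. Sequences are from RefSeq, GRCm38.p6, and gene models from GENCODE on GRCm38. The counts are on GRCm39, and no coordinates were converted.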

Additional observations from a re-analysis of the deposited data

Results flagged for a closer look

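In 4 of 64 groups of 4 libraries examined, 1 library stood apart from the other 3 by Dixon's criterion, and chance alone flags about 1 in 20 groups. Ptafr in saline neutrophils was at 386.9 CPM in inhibitors replicate 1 and at 121.3 to 154.0 CPM in the other 3 libraries. Without that library the log2 fold change of Ptafr in neutrophils was 0.75 in place of 0.40. Ptafr in LPS microglia was at 46.3 CPM in inhibitors replicate 1 and at 34.8 to 36.5 CPM in the others, all far below saline. Gpr65 in saline macrophages was at 107.9 CPM in DMSO replicate 1 and at 91.0 to 93.4 CPM in the others. Fpr1 in LPS NKs was at 6.697 CPM in DMSO replicate 2 and at 70.2 to 77.4 CPM in the other 3 libraries, a gene and class too sparse to be fitted.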

How the results depend on the processing

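Of the pairs of receptor gene and class that each alternative could fit, 0 were called for DMSO against inhibitors or for the interaction, leaving out each library included, and the lowest adjusted p over the alternatives, with pairs outside the 40 included, was 0.0992 for the first (Gpr84 in NKs, with no filter on low counts) and 0.337 for the second (Fpr3 in monocytes, replicate block). The list genes called after LPS numbered 195, and between 139 (DMSO libraries only) and 229 (no filter on low counts) under the alternatives, 189 with DESeq2, 166 with a stricter gate, 173 with free RNA subtracted and 181 to 206 when 1 library was left out. With the capture day as replicate block, these counts were 0, 0 and 201. With total counts as the scale, chosen after seeing the data, the share of calls that were higher after LPS fell to 17.3% from 46.0% in microglia, to 26.1% from 49.2% in macrophages and to 40.1% from 50.1% in monocytes. Of 840 combinations of a receptor pair and an alternative for LPS against saline, some could not be fitted. With free RNA subtracted, these included Gpr84 in monocytes, neutrophils and T-cells. Among those fitted, 8 log2 fold changes changed sign. They were Gpr65 in macrophages (-0.197, total counts), Gpr18 in monocytes (0.299, DMSO libraries only), Gpr18 in B-cells (0.113 with a looser gate, 0.024 without LPS DMSO replicate 1 and 0.047 without saline inhibitors replicate 1, with -0.592 to 0.047 over all such omissions), Gpr183 in T-cells (0.11, inhibitor libraries only) and Gpr65 in NKs (-0.087 without saline inhibitors replicate 1, with -0.087 to 0.248 over all such omissions, and -0.54 in DMSO libraries only). The cause was not tested. The stricter gate left too few dendritic cells to be fitted. The interaction had a median SE of 0.578 over the 40 pairs with 2 mice a combination, where depth and the spread between mice were not separated, and values of 1.71 and 1.64 (Fpr2 and Fpr3 in monocytes) were not called.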
